A study of Mus musculus with 6 samples.

Results

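Skeletal muscle takes up fatty acids, stores part of them as triglyceride and oxidizes the rest, and 39 genes of these steps were followed here in tibialis anterior (TA) muscle that lacks Bmal1. The genes were chosen by name for their place in uptake, triglyceride turnover, the carnitine shuttle, beta-oxidation or the regulation of these steps. The rule used no measured value, but the choice was made with earlier results of these data known. They are 39 of the 55401 gene identifiers in the count table, and all 39 passed the low-count filter that left 17222 genes for testing. Ribosomal RNA-depleted RNA was sequenced from the TA of 6 samples of C57BL/6 mice, 3 given AAV-GFP and 3 given AAV-RBM20, to ask what added RBM20, a splicing factor that acts on titin RNA, does in muscle without Bmal1. Both groups carried the genotype HSA-MCM-Bmal1-/-, in which a human skeletal actin promoter drives a tamoxifen-activated Cre, so that recombination is limited to skeletal muscle fibres and other cells of the tissue keep Bmal1. Both were dosed with tamoxifen, 2 mg on each of 5 days, at an age of 12 to 16 weeks. An adeno-associated virus (AAV) was given in the TA 4 weeks later, and tissue was taken 4 weeks after that. The AAV-RBM20 vector carried tagged mouse Rbm20 cDNA behind a viral promoter, and its dose was above that of AAV-GFP, so vector dose and transgene cannot be told apart. No Bmal1-intact muscle was compared here. The labels do not say whether samples of a group came from separate animals, so p-values measure the spread between these samples. Nor do they say whether both groups share animals. In gels of the study some mouse numbers stand under both treatments, marked R for GFP and L for Rbm20. The main test takes the samples as unpaired.

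Fatty acids released from lipoproteins by lipoprotein lipase (Lpl) enter the fibre through Cd36 and fatty acid transport proteins, are carried by the binding protein Fabp3 and are joined to coenzyme A by acyl-CoA synthetases such as Acsl1. Carnitine palmitoyltransferases (Cpt1a, Cpt1b, Cpt2) and the carrier Slc25a20 bring the acyl groups into the mitochondrion, where malonyl-CoA holds the first of these enzymes back. Each turn of beta-oxidation then uses an acyl-CoA dehydrogenase, a hydratase, a hydroxyacyl-CoA dehydrogenase and a thiolase, and the electrons of the first step leave through the electron transfer flavoprotein (Etfa, Etfb) and its dehydrogenase Etfdh. The nuclear receptors Ppara and Ppard and the coactivator Ppargc1a are known to raise transcription of many of these genes in muscle. BMAL1 is the clock transcription factor that pairs with CLOCK on E-box sequences, and genes of lipid use are among those known to cycle with the clock in muscle.

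The libraries held 41400132 to 54226618 counts, of which the 39 genes took 0.422% to 0.530%. Counts of a single gene of the set ranged from 80 to 26649 per library. Levels are given as CPM, counts per 1000000 counts of a library size that was scaled by TMM, the trimmed mean of M-values. Rbm20 was at 170.0, 165 and 164 CPM in AAV-GFP replicates 1, 2 and 3 and at 499, 545 and 406 CPM in AAV-RBM20 replicates 1, 2 and 3, with no overlap, and reads from the vector cannot be told from those of the mouse gene. Bmal1 itself, listed as Arntl, was at 30.99, 35.99 and 38.1 CPM in AAV-GFP and 24.5, 27.6 and 26.9 CPM in AAV-RBM20 (log2 fold change -0.41, edgeR adjusted p = 0.618), and with no Bmal1-intact muscle at hand these values do not check the deletion. Muscle fibre markers were present, with all 6 of 6 tested and a summed level of 40660 to 50900 CPM in AAV-GFP and 32320 to 41960 CPM in AAV-RBM20. The 2 libraries numbered 3, one in each group, stood apart from the other 4. They had 11.4% and 12.5% of their counts on mitochondrial genes against 6.41% to 7.67%, and 4.48% and 9.05% on Ttn, the gene of titin, against 16.9% to 17.8%. Results are therefore given with and without them, and with the replicate number as a block.

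No gene of the fatty acid set differed between AAV-RBM20 and AAV-GFP at an adjusted p under 0.05, by the quasi-likelihood F test of edgeR, with p-values adjusted by Benjamini-Hochberg over 17222 genes. This test called 0% of all genes tested, so 0 of 39 is also the share of the background. Rbm20, whose group ranges did not overlap, was therefore not called either. At an unadjusted p under 0.05 it counted 1 of the 39, Etfb, against 7.9% of all genes, and DESeq2 called 0 of the 39 at an adjusted p under 0.05, against 0.362% of all genes with an adjusted p. Of the 39 genes, 19 had a higher and 20 a lower fitted level in AAV-RBM20. The log2 fold changes ran from -0.51 for Etfb to 0.49 for Dgat2, with a median of -0.0026 beside 0.0090 over all genes tested. The size of the log2 fold change was under 0.25 for 33 of the 39, against 57.2% of all genes. Its median was 0.121 for the set, 0.208 for all genes and 0.165 for the 11017 genes expressed at least as highly as the lowest gene of the set.

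The precision of the 6 libraries sets how small a difference could have gone unseen. The 95% interval of the fold change lay inside 2-fold in either direction for 37 of the 39 genes, against 64.9% of all genes tested. It lay inside 1.5-fold for 27 of the 39, against 32.2% of all genes. The 2 genes with a wider interval were Plin5, from -1.12 to 0.45 on the log2 scale, and Dgat2, from -0.19 to 1.16. Once the replicate number was blocked, the interval lay inside 2-fold for all 39 and inside 1.5-fold for 33. The shares of all genes with the block were 70.7% and 46.3%. Smaller changes of a single gene could lie within these intervals unseen.

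**Figure D1:**
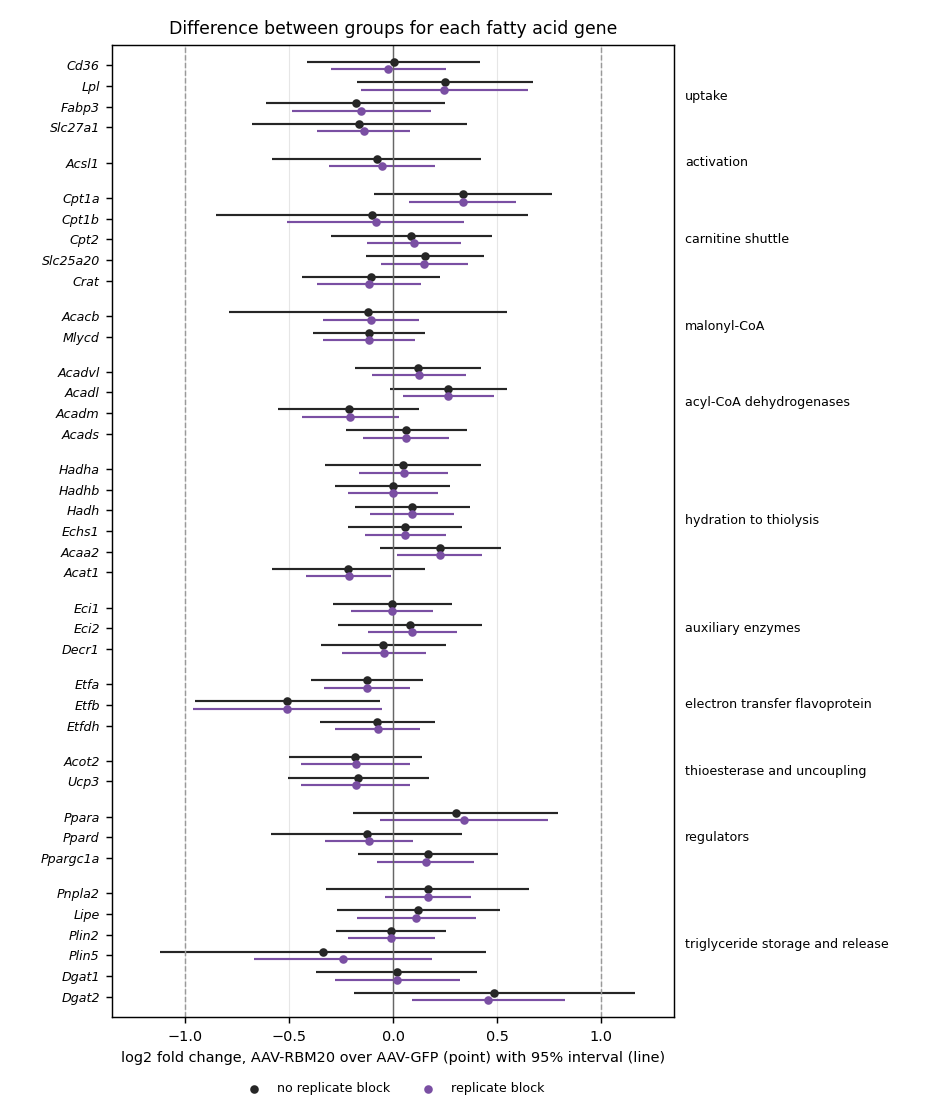
Log2 fold change of each fatty acid gene, AAV-RBM20 over AAV-GFP (horizontal axis), with its 95% interval, for the edgeR fit without (dark) and with (purple) the replicate number as a block. Genes are ordered by step of the pathway, dashed lines mark 2-fold, and only Etfb has an interval that leaves out 0 in both fits.

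The groups shared replicate numbers in the sample titles only, since the descriptions and the columns of the count table number the AAV-RBM20 samples 4 to 6, and every blocked or same-numbered value rests on the titles. The fit with the title number as a block called 0 of the 39 genes at an adjusted p under 0.05, against 0.145% of all genes. At an unadjusted p under 0.05 it counted 6 of 39, 4 higher (Cpt1a, Acadl, Acaa2, Dgat2) and 2 lower (Acat1, Etfb), against 18.8% of all genes, so the share in the set, 15.4%, lay near the background. Their adjusted p-values ran from 0.188 for Cpt1a to 0.2499 for Acat1. Without both libraries numbered 3, edgeR called 2 of 39, Fabp3 and Plin5, both lower in AAV-RBM20, against 4% of all genes, and counted 11 of 39 at an unadjusted p under 0.05 against 18.5% of all genes.

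Between same-numbered libraries, 11 of the 39 genes were higher in AAV-RBM20 in 3 of 3 pairs and 8 were lower in 3 of 3, against 22.2% and 23.0% of all genes tested. Group ranges of CPM did not overlap for 3 of the 39 genes. Acadl and Acaa2 were higher in each AAV-RBM20 library than in any AAV-GFP library, 2 of 39 against 7.71% of all genes tested. Etfb was lower in each, 1 of 39 against 9.04% of all genes. These 3 depend in number on the scaling of the libraries. With median-of-ratios size factors 6 genes did not overlap, as Mlycd, Etfa and Acot2 joined on the lower side, which made 2 higher and 4 lower against 7.53% and 9.54% of all genes. With upper-quartile factors 7 did not, as Slc25a20, Acadvl, Hadh and Ppargc1a joined on the higher side, which made 6 higher and 1 lower against 9.69% and 7.01% of all genes.

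**Figure D2:**
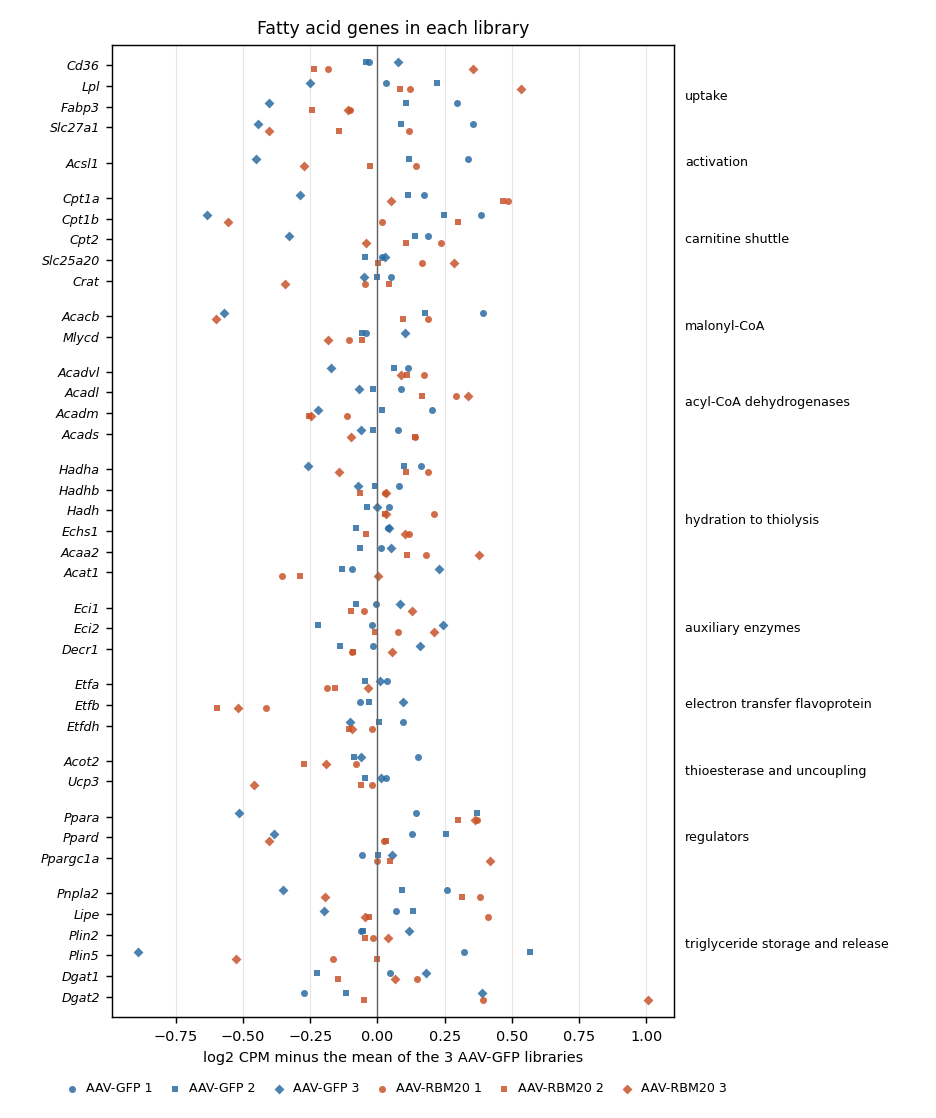
Log2 CPM of each fatty acid gene in each of the 6 libraries, as the difference from the mean of the 3 AAV-GFP libraries (horizontal axis), in order of the pathway. Circles, squares and diamonds stand for replicates 1, 2 and 3, and for genes such as Plin5, Acacb and Cpt1b the diamonds of both groups lie left of the other points.

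Promoters of the set were searched for the E-box bound by BMAL1 with CLOCK, since Bmal1 was deleted in the fibres of both groups, and for the elements of nuclear receptors that act on lipid genes. RefSeq promoters of GRCm38.p6, from 250 bases before to 50 bases after a start, matched 31 of the 39 genes with 36 promoters. The letters CACGTG, which read the same on both strands, were in 3 of the 36 (8.33%), those of Plin2, Lipe and Slc27a1, and in 7.15% of all 32851 promoters. The letters AAGGTCA, the extended element of estrogen-related receptors, were on either strand in 2 of the 36 (5.56%), those of Acadm and Acacb, and in 4.72% of all promoters. The peroxisome proliferator response element, AGGNCA repeated in the same direction after 1 base, was in 0 of the 36 and in 0.381% of all promoters. Any AAGGTCA also holds the letters AGGNCA. The 3 sequences that follow show the matches, in capitals, with the bases around them, for a lipase, a fatty acid transporter and a dehydrogenase of the set. A match is a description of the letters and not a measured binding site.

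Lipe, chr7:25396077-25396202, minus strand, E-box from 155 bases before the start: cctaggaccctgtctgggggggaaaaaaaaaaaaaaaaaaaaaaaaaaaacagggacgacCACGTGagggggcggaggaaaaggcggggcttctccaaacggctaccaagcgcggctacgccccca
Slc27a1, chr8:71570344-71570457, plus strand, E-box from 202 bases before the start: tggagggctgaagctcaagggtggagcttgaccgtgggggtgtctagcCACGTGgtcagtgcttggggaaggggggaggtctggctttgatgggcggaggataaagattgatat
Acadm, chr3:153944826-153944893, minus strand, AAGGTCA read on the other strand, from 249 bases before the start: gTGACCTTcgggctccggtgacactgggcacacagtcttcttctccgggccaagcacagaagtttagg

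The Lipe and Slc27a1 windows lie before a RefSeq start that is inside the span of the GENCODE gene, since longer transcripts of both genes begin further upstream, and the Acadm window lies outside the gene. None of the 3 genes passed the test. Lipe, the hormone-sensitive lipase, was at 15.1, 15.8 and 12.6 CPM in AAV-GFP and 19.2, 14.1 and 13.96 CPM in AAV-RBM20, and its groups overlapped. Slc27a1, a fatty acid transport protein, was at 107, 88.4 and 61.2 CPM and 90.3, 75.4 and 62.97 CPM, and in both groups replicate 3 was the lowest.

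Levels between genes were compared per kilobase of annotated exon, summed over all transcripts of a gene without double counting. This length takes in every annotated transcript, whether or not the muscle makes it, and was 823 bases for Fabp3 and 8286 for Echs1. The order of genes therefore depends on the annotation as well as on the counts. Fabp3 had the highest level, at 237 ± 56.01 CPM per kb (SD, n = 3) in AAV-GFP and 209.6 ± 11.1 CPM per kb in AAV-RBM20. The next were the dehydrogenases of long acyl chains, which were Acadvl at 95.5 ± 9.82 CPM per kb and Acadl at 80.5 ± 4.49 CPM per kb in AAV-GFP and whose AAV-GFP values overlapped. Cpt1b and Etfb were left out of this order, for the reason given next, and of the other 37 genes Cpt1a had the lowest level, 1.097 ± 0.181 CPM per kb in AAV-GFP. The dehydrogenases, the enzymes from hydration to thiolysis and the auxiliary enzymes lay between 6.204 (Eci2) and 95.5 (Acadvl) CPM per kb, whereas the triglyceride synthases Dgat1 and Dgat2 lay at 2.11 and 1.84 CPM per kb.

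The 2 genes with the smallest share of exon sequence of their own were Cpt1b, at chr15:89416405-89425863 on the minus strand of GRCm38, and Etfb, at chr7:43444083-43457800 on the plus strand, and this bears on their levels. Only 628 of the 3372 exon bases of Cpt1b (18.6%) and 486 of the 1164 exon bases of Etfb (41.8%) are free of another annotated gene on the same strand, and counting of reads per gene commonly leaves out a read that fits more than 1 gene. The overlapping gene models are Gm44502 for Cpt1b, with 0 counts in all 6 libraries, and Gm45233 for Etfb, with 1 count in AAV-GFP replicate 3 and 0 in the other 5. Among protein-coding genes tested, 92 of 13430 (0.685%) had under 50% of their exon sequence free in this way. The counts of Cpt1b and Etfb therefore cover a part of each transcript, and their levels cannot be compared with those of other genes.

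**Figure D3:**
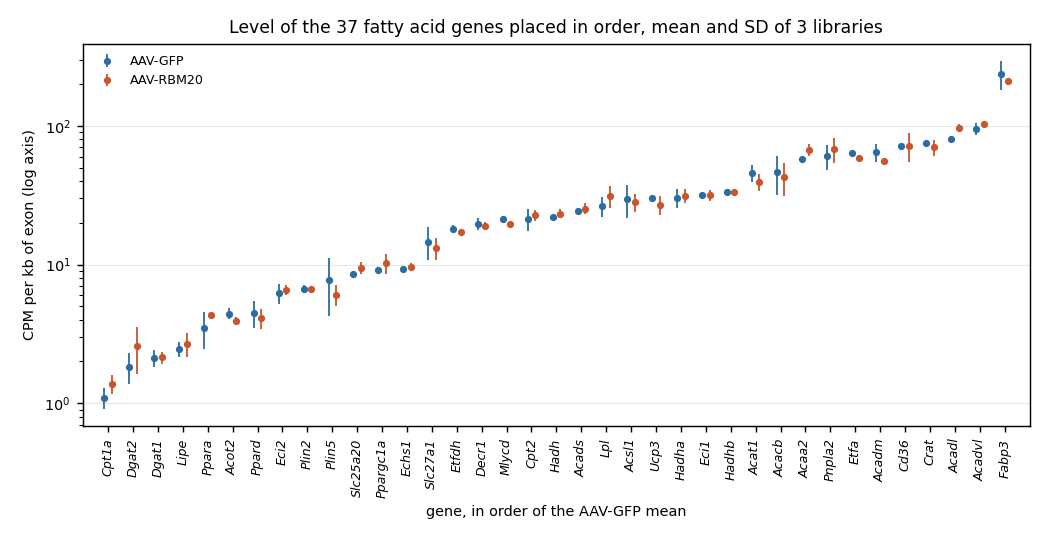
Level of 37 of the fatty acid genes, without Cpt1b and Etfb, in CPM per kilobase of exon (vertical log axis), as the mean and SD of 3 libraries for AAV-GFP (blue) and AAV-RBM20 (orange), in order of the AAV-GFP mean. The levels span from 1.097 CPM per kb for Cpt1a to 237 CPM per kb for Fabp3 in AAV-GFP, and the bars of both groups overlap or nearly meet for most genes.

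Genes of uptake showed no shared direction. Cd36, the fatty acid translocase, was at 253, 250.5 and 272 CPM in AAV-GFP replicates 1 to 3 and at 227, 219 and 330.1 CPM in AAV-RBM20 replicates 1 to 3. AAV-RBM20 replicate 3 was the highest of the 6, and replicates 1 and 2 lay below all AAV-GFP libraries. The log2 fold change of Cd36 was 0.0022 (SE 0.18, edgeR adjusted p = 0.997), with a 95% interval of -0.41 to 0.42, and it was -0.17 (adjusted p = 0.175) without the libraries numbered 3.

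Lpl, which frees fatty acids from lipoproteins, was at 278, 318 and 229 CPM in AAV-GFP and 296, 289 and 395 CPM in AAV-RBM20. Its highest value was again in AAV-RBM20 replicate 3 and its lowest in AAV-GFP replicate 3, and the other 4 libraries overlapped between groups. The log2 fold change was 0.25 (SE 0.18, edgeR adjusted p = 0.705) over all libraries and -0.019 (adjusted p = 0.936) without those numbered 3.

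Cd36 is also a product of endothelial cells, fat cells and macrophages, and Lpl of fat cells and macrophages. The markers of these cells are therefore given beside them. In a bulk sample fewer cells of a type and less RNA per cell cannot be told apart. The 10 of 10 endothelial markers tested summed to 223 to 506 CPM in AAV-GFP and 344 to 491 CPM in AAV-RBM20. Their sum was lowest in both libraries numbered 3, and 0 of 10 had an unadjusted p under 0.05, against 7.9% of all genes. The 12 of 12 macrophage markers tested summed to 36.8 to 129.7 CPM in AAV-GFP and 81.0 to 189.7 CPM in AAV-RBM20, highest in both libraries numbered 3. At an unadjusted p under 0.05 edgeR counted 1 of 12, against 7.9% of all genes. With the replicate block it counted 11 of 12, against 18.8%. At an adjusted p under 0.05 it called 0 of 12 with no block and 2 of 12 with the block, against 0% and 0.145% of all genes. Without the libraries numbered 3 it called 10 of 12, against 4%. Of 10 fat cell markers 6 were tested, with summed levels of 65.4 to 88.8 CPM and 59.8 to 83.5 CPM, most of it Fabp4, while Adipoq, the defining one, was at 0, 0.383 and 1.805 CPM and 0, 0.0498 and 0.597 CPM and Adrb3 and Ucp1 were at or near 0. The 6 of 6 fibroblast markers tested summed to 485 to 1026 CPM in AAV-GFP and 834 to 1066 CPM in AAV-RBM20. At an unadjusted p under 0.05 edgeR counted 1 of 6, against 7.9% of all genes. At an adjusted p under 0.05 it called 0 of 6 with no block. Without the libraries numbered 3 it called 4 of 6, against 4%. The part of any of these cells in the values of Cd36 and Lpl was not tested.

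Fabp3, the cytosolic fatty acid-binding protein of muscle, was at 235, 206 and 145 CPM in AAV-GFP and 178, 162 and 177 CPM in AAV-RBM20. AAV-GFP replicate 3 was the lowest of all 6, and the other AAV-GFP libraries were the highest. Fabp3 had a log2 fold change of -0.18 (SE 0.19, adjusted p = 0.782) and -0.15 (adjusted p = 0.579) with the replicate block. Without the libraries numbered 3 Fabp3 was lower in AAV-RBM20 at -0.37 (SE 0.079, edgeR adjusted p = 0.0306), a call that rests on 2 libraries per group. Exons of Fabp3 overlap those of Gm10570 and Zcchc17 on the opposite strand. Exons of 8 other genes of the set also overlap a gene on the opposite strand. The strand setting of the counting is not given in the sources used here.

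Acsl1, the main acyl-CoA synthetase of muscle, was at 382, 328 and 221 CPM in AAV-GFP and 334, 297 and 250.3 CPM in AAV-RBM20. Replicate 3 was the lowest in both groups, and the spread within AAV-GFP exceeded the difference between the group means, 310.5 ± 81.98 against 294 ± 42.1 CPM. Acsl1 had a log2 fold change of -0.079 (SE 0.22, adjusted p = 0.928).

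None of the 5 genes of the carnitine shuttle passed the test, and the highest log2 fold change was that of Cpt1a. Cpt1a, the carnitine palmitoyltransferase isoform best known from liver, was at 9.37, 8.98 and 6.802 CPM in AAV-GFP and 11.6, 11.5 and 8.61 CPM in AAV-RBM20. It was higher in AAV-RBM20 in 3 of 3 same-numbered pairs, but AAV-RBM20 replicate 3 lay below AAV-GFP replicates 1 and 2. The log2 fold change was 0.34 (SE 0.19, unadjusted p = 0.108, adjusted p = 0.657), and with the block 0.33 (SE 0.11, unadjusted p = 0.0171, adjusted p = 0.188).

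Cpt1b, the muscle isoform, was at 4.35, 3.95 and 2.15 CPM in AAV-GFP and 3.37, 4.11 and 2.27 CPM in AAV-RBM20, counted on the small part of its exons described above. Replicate 3 was the lowest in both groups, and the groups overlapped throughout. Cpt1b had a log2 fold change of -0.10 (SE 0.32, adjusted p = 0.939), with an interval of -0.85 to 0.65. Cpt2, the enzyme of the inner membrane, and the carrier Slc25a20 had log2 fold changes of 0.087 and 0.15, and Crat, which makes acetylcarnitine, had -0.11, with adjusted p-values of 0.891, 0.726 and 0.836.

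Malonyl-CoA, the inhibitor of the shuttle, is made by acetyl-CoA carboxylase, of which Acacb is the muscle form, and removed by malonyl-CoA decarboxylase, Mlycd. Acacb was at 563, 485 and 288 CPM in AAV-GFP and 488, 458 and 283 CPM in AAV-RBM20. Both libraries numbered 3 lay far below the other 4, which overlapped between groups. Its log2 fold change was -0.12 (SE 0.29, adjusted p = 0.915), and -0.11 (SE 0.10, adjusted p = 0.579) with the block, which took most of the spread out of the error.

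Mlycd was at 60.9, 60.2 and 67.3 CPM in AAV-GFP and 58.2, 60.3 and 55.2 CPM in AAV-RBM20. The groups nearly separated, with AAV-RBM20 replicate 2 within 1 CPM of the lowest AAV-GFP library. For Mlycd the log2 fold change was -0.12 (SE 0.12, adjusted p = 0.774).

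The 4 acyl-CoA dehydrogenases, which differ in the chain length they accept, did not share a direction, as 3 had a higher and 1 a lower fitted level in AAV-RBM20. Acadvl, for very long chains, was at 276, 266 and 227 CPM in AAV-GFP and 288, 276 and 272 CPM in AAV-RBM20. The lowest AAV-GFP value, in replicate 3, set most of the difference between the group means, and the log2 fold change was 0.12 (SE 0.13, adjusted p = 0.796).

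Acadl, for long chains, was at 171, 159 and 154 CPM in AAV-GFP and 197, 181 and 203 CPM in AAV-RBM20. It is named with its values because its group ranges did not overlap, so it was chosen after its values were seen. Its log2 fold change was 0.26 (SE 0.12, edgeR unadjusted p = 0.0622, adjusted p = 0.641), and with the block the adjusted p was 0.208. A 2-sided exact permutation test gave p = 0.1, the smallest that 3 against 3 allow. Every gene whose ranges do not overlap gets this value, so for Acadl it adds nothing to the choice. Acadm, for medium chains, went the other way, at 289.6, 254 and 216 CPM and 232, 210.5 and 212 CPM, with a log2 fold change of -0.21 (SE 0.15, adjusted p = 0.6902), and Acads, for short chains, had 0.064 (SE 0.12, adjusted p = 0.892).

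The enzymes from hydration to thiolysis had log2 fold changes from -0.21 for Acat1 to 0.23 for Acaa2, and those of Hadha, Hadhb, Hadh and Echs1 lay between. Hadha, the alpha subunit of the trifunctional protein, was at 293, 281 and 219 CPM in AAV-GFP and 299, 283 and 238 CPM in AAV-RBM20. Values of replicates 1 and 2 differed by under 6 CPM between same-numbered libraries, and replicate 3 was the lowest in both groups. Hadha had a log2 fold change of 0.046 (SE 0.16, adjusted p = 0.945), and its partner subunit Hadhb had -0.0026 (SE 0.12, adjusted p = 0.996). The hydroxyacyl-CoA dehydrogenase Hadh and the hydratase Echs1 had log2 fold changes of 0.092 and 0.058.

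Thiolases release acetyl-CoA at the end of each turn, and Hadhb, given above, also carries such an activity. Acaa2, the mitochondrial 3-ketoacyl-CoA thiolase, was at 87.8, 82.97 and 90.04 CPM in AAV-GFP and 98.5, 93.6 and 113 CPM in AAV-RBM20, and was chosen after its values were seen because its ranges did not overlap. Acat1, which acts on acetoacetyl-CoA and so also in ketone use, was at 159.8, 156 and 200.1 CPM in AAV-GFP and 133, 139.8 and 171 CPM in AAV-RBM20, lower in AAV-RBM20 in 3 of 3 same-numbered pairs but with overlapping ranges. The log2 fold change was 0.23 (SE 0.13) for Acaa2 and -0.21 (SE 0.16) for Acat1, with edgeR adjusted p-values of 0.657 and 0.708, and 0.241 and 0.2499 with the block.

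Unsaturated fatty acids need extra enzymes. Decr1, the mitochondrial 2,4-dienoyl-CoA reductase, was at 75.3, 69.2 and 85.1 CPM in AAV-GFP and 71.4, 71.6 and 79.3 CPM in AAV-RBM20. Its values overlapped, with replicate 3 the highest in both groups, and its log2 fold change was -0.047 (SE 0.13, adjusted p = 0.929). The isomerases Eci1 and Eci2 had log2 fold changes of -0.0045 and 0.083.

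The electron transfer flavoprotein passes electrons of the acyl-CoA dehydrogenases to ubiquinone by way of Etfdh. Etfb, its beta subunit, was at 2.88, 2.95 and 3.21 CPM in AAV-GFP and 2.25, 1.99 and 2.1 CPM in AAV-RBM20, from counts of 117, 123 and 169 and 123, 80 and 102. Every AAV-RBM20 library lay below every AAV-GFP library. The log2 fold change was -0.51 (SE 0.19, interval -0.95 to -0.064, unadjusted p = 0.02995, edgeR adjusted p = 0.618), and -0.45 (adjusted p = 0.288) without the libraries numbered 3. These counts come from 41.8% of the exon sequence of Etfb and from few reads, so the value describes that part of the gene.

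Etfa, the alpha subunit, had a log2 fold change of -0.13 (SE 0.12, adjusted p = 0.753). Etfdh was at 145, 136 and 127 CPM in AAV-GFP and 134, 126 and 127 CPM in AAV-RBM20, and the groups overlapped. Its log2 fold change was -0.075 (SE 0.12, adjusted p = 0.864), so the larger value of Etfb was not met by either partner, although a difference between them was not tested.

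Acot2, a mitochondrial thioesterase, and Ucp3, the uncoupling protein of muscle, both had a lower mean in AAV-RBM20. Acot2 was at 10.8, 9.13 and 9.29 CPM in AAV-GFP and 9.18, 8.04 and 8.504 CPM in AAV-RBM20, with a log2 fold change of -0.18 (SE 0.14, adjusted p = 0.711). Reads of Acot2 are uncertain because the gene has near-identical relatives, such as Acot1, which was at 0.0190 to 0.344 CPM and was not tested. Ucp3 was at 96.9, 91.7 and 95.6 CPM in AAV-GFP and 93.4, 90.8 and 68.9 CPM in AAV-RBM20, and the low value of AAV-RBM20 replicate 3 set most of the difference, a log2 fold change of -0.17 (SE 0.15, adjusted p = 0.744).

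Among regulators, Ppara, the receptor that drives oxidation genes, was at 14.3, 16.8 and 9.08 CPM in AAV-GFP and 16.8, 15.97 and 16.7 CPM in AAV-RBM20. The AAV-RBM20 libraries were nearly equal, and AAV-GFP replicate 3 was the lowest of the 6. For Ppara the log2 fold change was 0.30 (SE 0.21, adjusted p = 0.699), and 0.082 (adjusted p = 0.747) without the libraries numbered 3.

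Ppard, the receptor most tied to muscle, was at 36.2, 39.6 and 25.4 CPM in AAV-GFP and 33.8, 33.9 and 25.1 CPM in AAV-RBM20. Both libraries numbered 3 were low by a like amount, and the log2 fold change was -0.13 (SE 0.20, adjusted p = 0.864). Ppargc1a, the coactivator of mitochondrial genes, was at 57.5, 59.95 and 62.1 CPM in AAV-GFP and 59.8, 61.8 and 80.1 CPM in AAV-RBM20, with AAV-RBM20 replicate 3 above the rest and a log2 fold change of 0.17 (SE 0.15, adjusted p = 0.744).

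Triglyceride release starts with Pnpla2, the adipose triglyceride lipase, which was at 216, 192 and 142 CPM in AAV-GFP and 235, 224 and 158 CPM in AAV-RBM20. It was higher in AAV-RBM20 in 3 of 3 same-numbered pairs, and replicate 3 was the lowest in both groups. For Pnpla2 the log2 fold change was 0.17 (SE 0.21, adjusted p = 0.828), and 0.17 (SE 0.089, adjusted p = 0.348) with the block. With no block it was 0.0080 once AAV-GFP replicate 3 was left out and 0.33 once AAV-RBM20 replicate 3 was.

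Perilipins coat the lipid droplet. Plin2 was at 22.4, 22.5 and 25.4 CPM in AAV-GFP and 23.1, 22.6 and 24.1 CPM in AAV-RBM20, with overlapping groups and a log2 fold change of -0.010 (SE 0.12, adjusted p = 0.984). Plin5, the perilipin of oxidative tissue that ties droplets to mitochondria, was at 18.4, 21.8 and 7.92 CPM in AAV-GFP and 13.1, 14.7 and 10.2 CPM in AAV-RBM20. AAV-GFP replicate 3 was the lowest of all 6 and AAV-GFP replicates 1 and 2 the highest.

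Over all libraries Plin5 had a log2 fold change of -0.34 (SE 0.34, adjusted p = 0.773), and -0.24 (adjusted p = 0.493) with the block. Without the libraries numbered 3 it was lower in AAV-RBM20 at -0.53 (SE 0.11, edgeR adjusted p = 0.0247), and with 1 library left out it ran from -0.67 without AAV-GFP replicate 3 to -0.056 without AAV-GFP replicate 2. Slow and oxidative fibre markers, a list of 8 that is mostly Myh2, were also lowest in AAV-GFP replicate 3. There they summed to 76.1 CPM against 531 and 657 CPM in the other AAV-GFP libraries and 496 to 925 CPM in AAV-RBM20. At an unadjusted p under 0.05, 2 of 8 were higher by edgeR, against 7.9% of all genes. Without the libraries numbered 3, 1 of 8 was higher, against 18.5%. Fast fibre markers, a list of 7, summed to 86770 to 100400 CPM in AAV-GFP and 57150 to 91790 CPM in AAV-RBM20. At an unadjusted p under 0.05, 2 of 7 were lower, against 7.9% of all genes. With the block 4 of 7 were lower, against 18.8%, and without the libraries numbered 3 it was 3 of 7, against 18.5%. Of the 6 muscle fibre markers, 2 were lower in each of these fits. At an adjusted p under 0.05, edgeR called 1 of the 7 fast markers without the libraries numbered 3, against 4% of all genes. The part of fibre composition in the values of Plin5 and Fabp3 was not tested.

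The last step of triglyceride synthesis is made by Dgat1 and Dgat2. Dgat1 was at 6.62, 5.49 and 7.26 CPM in AAV-GFP and 7.09, 5.797 and 6.71 CPM in AAV-RBM20, with overlapping groups and a log2 fold change of 0.018 (SE 0.17, adjusted p = 0.9802). Dgat2 was at 4.6, 5.13 and 7.28 CPM in AAV-GFP and 7.296, 5.37 and 11.2 CPM in AAV-RBM20. Replicate 3 was the highest in both groups, and AAV-RBM20 was higher in 3 of 3 same-numbered pairs. Its log2 fold change was 0.49 (SE 0.29, unadjusted p = 0.135, adjusted p = 0.6597), and 0.46 (SE 0.16, unadjusted p = 0.0207, adjusted p = 0.1997) with the block. With no block the log2 value of Dgat2 was 0.17 once AAV-RBM20 replicate 3 was left out and 0.71 once AAV-GFP replicate 3 was.

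Within both groups, replicate 3 differed from replicates 1 and 2 in many of the fatty acid genes. Replicate 3 lay below the mean of replicates 1 and 2 in both groups for 18 of the 39 genes and above it in both for 13, against 34.6% and 36.2% of all genes tested, while 8 genes had opposite signs. The lowest log2 difference was -1.33 for Plin5 in AAV-GFP, followed by -0.92 for Cpt1b and -0.86 for Acacb, which in AAV-RBM20 were at -0.44, -0.70 and -0.74. Dgat2 was on the other side, at 0.57 and 0.81. The genes that were low in both libraries included Acsl1, Slc27a1, Cpt1a, Cpt1b, Cpt2, Acacb, Acadvl, Acadm, Hadha, Ppard, Pnpla2 and Plin5. They span uptake, transport, beta-oxidation, regulation and lipolysis. Across the 39 genes Spearman's rho between exon length and this difference was -0.22 in AAV-GFP and -0.18 in AAV-RBM20, beside -0.116 and -0.078 over 17196 genes, as a description of genes that share libraries.

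**Figure D4:**
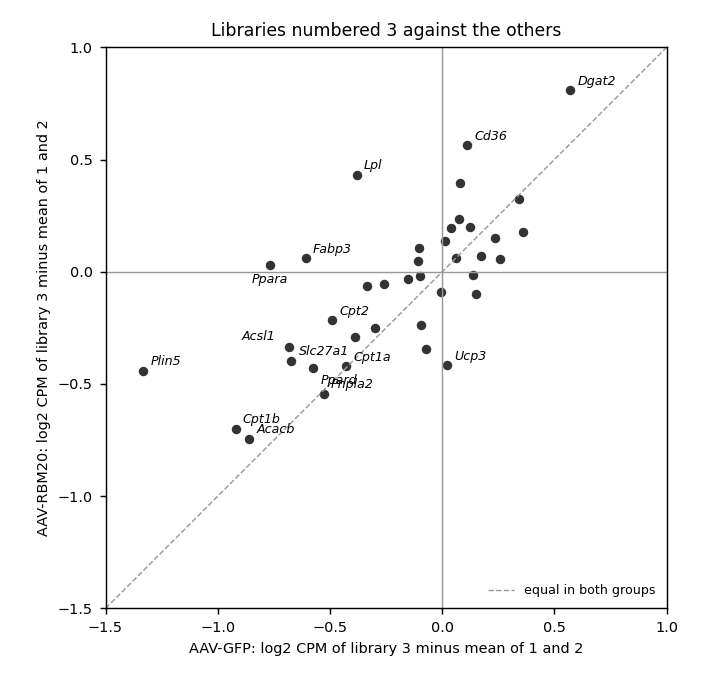
Log2 CPM of replicate 3 minus the mean of replicates 1 and 2 for each of the 39 fatty acid genes, in AAV-GFP (horizontal axis) and AAV-RBM20 (vertical axis), with a dashed line where both are equal. Acacb and Cpt1b lie low in both groups, Dgat2 lies high in both, and Plin5 lies lowest in AAV-GFP.

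Further genes of the same pathways were counted to see whether the 39 stood alone. Of 56 other genes of fatty acid and triglyceride metabolism and its regulation, 55 were tested, and 0 passed an adjusted p under 0.05 with edgeR, with or without the block. Without the libraries numbered 3 it called 3, Ucp2 and Acaa1a higher and Rxra lower, against 4% of all genes, and DESeq2 with the block called 3, Ucp2 higher and Rxra and Prkab2 lower, against 3.28% of all genes with an adjusted p. At an unadjusted p under 0.05 there were 3, or 5.45%, against 7.9% of all genes, 1 higher and 2 lower. Ucp2, an uncoupling protein of many cell types, was higher, at 8.905, 8.43 and 11.7 CPM in AAV-GFP and 15.8, 12.7 and 20.6 CPM in AAV-RBM20, with a log2 fold change of 0.76 (SE 0.21, adjusted p = 0.618, with the block 0.0602, without the libraries numbered 3 0.00993, and in DESeq2 with the block 0.00175). Ucp2 is also made by macrophages, whose summed markers were higher in each AAV-RBM20 library than in the AAV-GFP library of the same number, and their part in its value was not tested.

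Rxra, the partner of the PPAR receptors, was lower, at 210.1, 201 and 257 CPM in AAV-GFP and 161, 177 and 153 CPM in AAV-RBM20, with a log2 fold change of -0.45 (SE 0.14, adjusted p = 0.618, without the libraries numbered 3 0.0489, and in DESeq2 with the block 0.031). Prkab2, a subunit of the AMP-activated kinase that restrains Acacb, was lower too, at 382, 385 and 445 CPM and 286, 334 and 279 CPM, with -0.43 (SE 0.14, adjusted p = 0.618, without the libraries numbered 3 0.0643, and in DESeq2 with the block 0.022). Acaa1a, a thiolase of peroxisomes, had 0.19 over all libraries (adjusted p = 0.711) and 0.34 (adjusted p = 0.0402) without those numbered 3. Group ranges of CPM did not overlap for 4 of the 56 genes on the higher and 4 on the lower side, Ucp2, Rxra and Prkab2 among them. The shares of all genes tested were 7.71% and 9.04%. The median log2 fold change of the 55 genes was -0.036, and with the block 12 of 55 had an unadjusted p under 0.05, 6 in each direction, or 21.8% against 18.8% of all genes.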

How the data were processed

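RNA of 6 TA samples was made into stranded, ribosomal RNA-depleted libraries. Per the labels, the authors used HISAT2, HTSeq and DESeq2 with mm10, and versions, annotation release and strand setting are not given in the sources used here. The deposited counts are raw whole numbers per Ensembl gene. A second deposited table of DESeq2-normalized values was not used. Symbols, GRCm38 positions and exon lengths came from GENCODE M21, and promoters from RefSeq GRCm38.p6.

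Groups came from the treatment label and replicate numbers from the titles. Counts were tested with edgeR 4.0.16 (filterByExpr, TMM, robust glmQLFit, glmQLFTest, no covariate) in R 4.3.3, with Benjamini-Hochberg adjustment over the 17222 genes tested. The SE is the log2 fold change divided by the square root of F, and the 95% interval uses the moderated degrees of freedom. On simulated counts for these genes the test recovered 78 of 100 genes changed by 1 and 100 of 100 changed by 2 on the log2 scale. The simulation used a fixed spread for all genes and held no library that stood apart. It checks the code and does not give the power of the test in these data. Replicates differed by more than sampling noise (chi-square of counts), so none was a copy. Deviations from the group means correlated between same-numbered libraries at 0.418, 0.201 and 0.484, across 17222 genes. These values were above the minimum of 0.1, so the numbers were taken as pairs. Because 1 library of each group stood apart and moved its group mean, deviations of the others correlate however they are matched. AAV-GFP 2 with AAV-RBM20 1 also reached 0.216, and AAV-GFP 1 with AAV-RBM20 2 reached 0.1305. The minimum therefore could not decide how the libraries numbered 1 and 2 pair. The difference of number 1 minus number 2, which leaves out the libraries that stood apart, correlated between groups at 0.135. The pairing rests on the titles. Alternatives used a replicate block, DESeq2 1.42.0, limma-voom (limma 3.58.1), other scalings and filters, removal of length and GC trends, and fewer libraries.

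Members and lists were chosen with earlier results of these data known. Values in every library are given for members with an unadjusted p under 0.05 and for a listed 21 members whatever they showed, and for Fabp3, Slc27a1, Lipe, Acadl, Acadm, Acaa2 and Acat1, which were added after their values were seen.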

Additional observations from a re-analysis of the deposited data

How the results depend on the processing

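In the planned test 0 of all genes passed an adjusted p of 0.05. The count was 25 with the replicate block, 503 with that block in DESeq2, 72 with DESeq2 alone, 8 when no low-count filter was used, 154 with the replicate block and length and GC trends removed, and 690 without both libraries numbered 3. Members past an adjusted p of 0.05 numbered 2 without both libraries numbered 3 and 0 under the other alternatives.

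Members past an unadjusted p of 0.05 are given with the share of all genes under the same setting. They numbered 1 in the planned test (7.9%), 2 with upper-quartile factors (7.95%), 0 with no low-count filter (5.83%), 2 with at least 1 CPM in 3 libraries (8.35%), 6 with the replicate block (18.8%), 3 with DESeq2 and the replicate block (8.07%), 3 with the replicate block and trends removed (20.7%), 11 without both libraries numbered 3 (18.5%), and 0 without both numbered 1 (1.97%) or both numbered 2 (3.69%). Leaving out 1 library at a time gave 0 to 5, with 5 without AAV-GFP replicate 3 (11.4%). Members whose ranges did not overlap numbered 6 with median-of-ratios and 7 with upper-quartile factors, an alternative chosen after seeing the data. The median log2 fold change of the members was -0.063 with trends removed, where that of all genes was -0.069, and -0.024 to 0.062 with 1 library left out.

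Over 440 values of the 22 members given in every library by the planned rule, 400 had the sign of the planned test with no call, 39 had the opposite sign, in 10 members, and 1 passed the threshold. Cd36 was at -0.0085 without a low-count filter, -0.0036 with median-of-ratios factors, -0.016 with DESeq2, -0.023 with limma-voom, -0.17 without both libraries numbered 3 and -0.14 after removal of trends, and, under the replicate block, at -0.023, with DESeq2 at -0.040 and after removal of trends at -0.15. Lpl was at -0.019 and Plin2 at 0.033 without both libraries numbered 3, and Plin2 at 0.035 with upper-quartile factors and 0.017 with at least 1 CPM. Dgat1 was at -0.00031 with DESeq2, -0.043 after removal of trends (-0.036 under the block), -0.030 without both numbered 1 and -0.024 without both numbered 2. Hadha was at -0.016 with trends removed, also with the block, and Cpt1b at 0.052 without both numbered 1. With 1 library left out the lowest and highest values were -0.20 and 0.10 for Cd36, -0.28 and 0.094 for Acsl1, -0.36 and 0.11 for Cpt1b, -0.36 and 0.10 for Acacb, -0.30 and 0.012 for Ppard, -0.090 and 0.11 for Dgat1, -0.074 and 0.15 for Hadha, -0.12 and 0.034 for Decr1, -0.045 and 0.048 for Plin2. The causes of these shifts were not tested.

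The mean level was under 10 CPM for 6 members. With 3 libraries per group, of which 1 stands apart in each, small changes could not be detected.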
